A study of Drosophila melanogaster with 16 samples.

Results

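The 10 genes described here encode proteins of epithelial polarity and cell junctions that were not themselves mutated to make the tumours. They were chosen by FlyBase identifier, and all 10 were found among the 11196 features of the array. They are dlg1 (FBgn0001624) and l(2)gl (FBgn0002121) of the Scribble module, par-6 (FBgn0026192) and aPKC (FBgn0022131, an older identifier) of the Par complex, shg (FBgn0003391) and arm (FBgn0000117) of the adherens junction, and cora (FBgn0010434), Nrx-IV (FBgn0013997), Fas3 (FBgn0000636) and Nrg (FBgn0002968, an older identifier) of the septate junction. The pairing of identifiers with names came with the choice of genes and is not in the deposited table.

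For each of 4 tumour genotypes, RNA of tumour-bearing discs and RNA of wild-type discs were labelled in different dyes and put together on 4 custom arrays. The tumours were in the larval eye-antennal disc of Drosophila, the epithelium that forms the adult eye and antenna, and carried an activated Ras with loss of scrib (RasV12scrib-), a gain-of-function Raf with loss of scrib (RafGOFscrib-), an activated Ras with loss of baz (RasV12baz-) or an activated Ras with loss of cdc42 (RasV12cdc42-). The promoter or driver of each transgene, and the share of a disc that mutant cells took up, are not given in the labels. Larvae were kept at 25 °C and were in the third instar, at day 10 for the tumours and at day 5 to 6 for the wild-type, with about 30 to 40 discs dissected. The tumour discs were thus the older ones throughout, so age and tumour cannot be told apart against wild-type. In such bulk tissue, fewer cells of a type and less RNA per cell cannot be told apart either.

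The values are log2 ratios, read here as tumour over wild-type, so that 1 unit is a doubling. This direction is likely from the order of the channels, with tumour RNA listed first throughout, but it is not stated. If it were the opposite, each rise below would be a fall of the same size and each fall a rise. A log2 ratio says nothing of how strongly a gene was expressed, so no gene's level is set against another's. RafGOFscrib- replicates 1 and 2 were equal in 95.1% of the features and in all 10 genes, and were averaged into 1 replicate, which left n = 3 there, n = 4 in each of the other genotypes and 15 replicates in all. The median log2 ratio of all features ran from -0.12 to 0.48 over the replicates, and the number of arrays limits the precision. Of 36 markers of disc, glia, neuron, haemocyte, fat body, muscle and trachea, 1 could be paired with a feature, so the labelled tissue could not be checked. This was Lsp2, a larval serum protein of the fat body, whose log2 ratio ran from -4.44 to -2.49 in RasV12scrib-, from -3.05 to 0.40 in RafGOFscrib-, from -3.22 to 2.60 in RasV12baz- and from -2.49 to -0.46 in RasV12cdc42-. The part of fat body RNA in the results below was not tested.

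In epithelial cells the Scribble module, made of Scrib, Dlg1 and L(2)gl, marks the basolateral side, and the Par complex, made of Baz, Par-6, aPKC and Cdc42, marks the apical side, each holding the other out of its domain. Adherens junctions form between these domains around E-cadherin, and in flies septate junctions lie basal to them and seal the epithelium. In imaginal discs, loss of a Scribble module gene gives overgrown tissue that has lost its layered shape, and together with activated Ras it gives invasive tumours. The engineered tumours thus lacked either a Scribble module gene (scrib) or a Par complex gene (baz or cdc42), and the comparisons ask how the transcripts of the remaining polarity and junction genes stood in each.

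Among the 10 genes, l(2)gl and Nrg were above 0 on all 15 replicates, as were 4.97% of all features. Against each array's median Nrg was above on all 15, as were 2.7% of all features, and l(2)gl on 14, being below it on RasV12baz- replicate 1. The transcript of l(2)gl rose 2.1-fold to 2.8-fold in RasV12scrib-, RafGOFscrib- and RasV12cdc42-. Of 26 other settings its RasV12scrib- call was lost in none and each of the other calls in 2. Of these settings 15 left out 1 replicate, mostly of a genotype other than the one tested. The settings are therefore not independent checks, here and below. The transcript of Nrg rose 1.7-fold to 2.0-fold in RasV12scrib- and RasV12cdc42-, with each call lost in 2 of 26 settings. The transcripts of arm and cora fell 1.8-fold in RasV12scrib- and did not pass the test elsewhere. That of arm was lost in 5 of 26 settings and that of cora in 1. The transcript of par-6 rose in RafGOFscrib-, a call lost in 14 of 26 settings. With replicates 1-2 and 3-4 as random blocks, the calls kept against wild-type were those of l(2)gl and cora in RasV12scrib- and of l(2)gl in RafGOFscrib-. The remaining 5 genes (dlg1, aPKC, shg, Nrx-IV and Fas3) passed the test in none of the 4 genotypes. No gene passed a test of the difference between tumour genotypes.

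**Figure D1:**
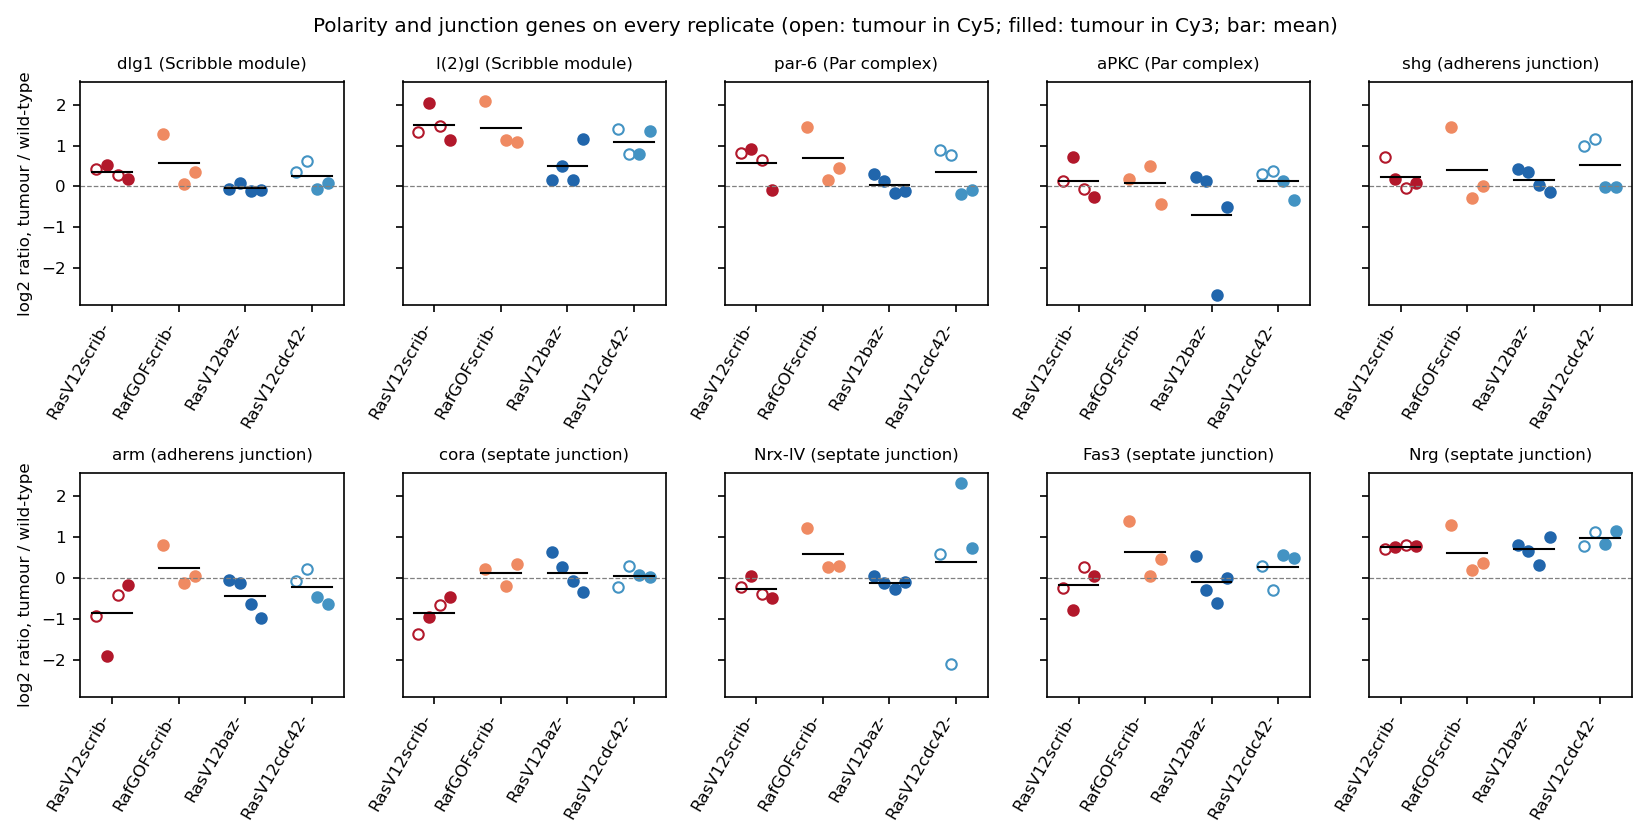
Log2 ratio of tumour over wild-type (vertical axis) for each of the 10 genes on every replicate, by genotype. Each point is 1 replicate in the order 1 to 4 from left to right, with the merged RafGOFscrib- replicates 1 and 2 as 1 point; open points had tumour RNA in Cy5, filled points in Cy3, and the bar is the mean. All points of l(2)gl and Nrg lie above 0, and all 4 RasV12scrib- points of arm and cora lie below it.

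The Scribble module gene l(2)gl encodes a cytoskeletal protein that keeps the Par complex off the basolateral side. In RasV12scrib- its log2 ratio was 1.33, 2.05, 1.49 and 1.14 on replicates 1 to 4, and in RafGOFscrib- it was 2.10 on the merged replicates 1 and 2, 1.14 on replicate 3 and 1.08 on replicate 4. In RasV12cdc42- it was 1.41, 0.79, 0.79 and 1.37, and in RasV12baz- 0.15, 0.51, 0.15 and 1.16. The values of the scrib tumours and of RasV12cdc42- were thus all at 0.79 or more, while in RasV12baz- replicate 4 alone was above that and the other replicates were lower.

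The fitted log2 change of l(2)gl against wild-type was 1.50 ± 0.22 (SE, 2.84-fold, n = 4) in RasV12scrib- (limma, Benjamini-Hochberg adjusted p = 4.13e-05). It was 1.40 ± 0.29 (n = 3, limma adjusted p = 0.0083) in RafGOFscrib- and 1.09 ± 0.22 (n = 4, limma adjusted p = 0.00259) in RasV12cdc42-. In RasV12baz- it was 0.45 ± 0.27 with a 95% interval from -0.11 to 1.01, and did not pass the test (limma adjusted p = 0.417, n = 4). The change in RasV12scrib- was above that of 97.8% of all features, and those in RafGOFscrib- and RasV12cdc42- above 98.6% and 97.5%. In the opposite reading of the ratio they would lie below these shares instead. The RasV12scrib- call of l(2)gl was kept under all 26 other settings. The RafGOFscrib- call was lost without the merged replicate (1.07, adjusted p = 0.132) and without both it and RasV12baz- replicate 4 (adjusted p = 0.0735), and the RasV12cdc42- call was lost with replicates 1-2 and 3-4 as random blocks (adjusted p = 0.111) and on the Cy3 arrays alone (adjusted p = 0.0708).

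The other gene of the module, dlg1, encodes a scaffold protein of the basolateral membrane and septate junction. Its log2 ratio was 0.42, 0.54, 0.27 and 0.19 in RasV12scrib-, 1.27, 0.07 and 0.36 in RafGOFscrib-, -0.06, 0.09, -0.12 and -0.09 in RasV12baz-, and 0.35, 0.61, -0.05 and 0.10 in RasV12cdc42-. The fitted changes from 0.06 to 0.68 did not pass the test in any genotype, with limma adjusted p from 0.132 in RafGOFscrib- to 0.921 in RasV12baz-. On every one of the 15 replicates the log2 ratio of l(2)gl was above that of dlg1, by 0.17 to 1.51 with a median of 0.91. This order does not depend on where an array's zero is set. How many other pairs of features on the array keep one order on all 15 replicates was not counted.

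Of the Par complex genes, par-6 encodes the adaptor that links Cdc42 to the kinase aPKC. Its log2 ratio was 0.82, 0.91, 0.65 and -0.09 in RasV12scrib- and 1.45, 0.16 and 0.46 in RafGOFscrib-. It was 0.31, 0.13, -0.16 and -0.11 in RasV12baz- and 0.90, 0.77, -0.20 and -0.08 in RasV12cdc42-. In RasV12baz- and RasV12cdc42- replicates 1 and 2 lay above 0 and replicates 3 and 4 below it. The fitted change in RafGOFscrib- was 1.02 ± 0.28 (SE, 2.02-fold, n = 3, limma adjusted p = 0.0412), whereas the mean of its replicates was 0.69, because the fit adds a dye correction estimated in the genotypes with swapped arrays. Without the merged replicate the fitted value was 0.63 (adjusted p = 0.461), and without the dye term it was 0.69 (adjusted p = 0.104). In RasV12scrib- par-6 had a fitted change of 0.57 ± 0.21 that did not pass the test (limma adjusted p = 0.0535, n = 4), and it passed under 9 of 26 other settings. On 12 of the 15 replicates par-6 had a higher log2 ratio than aPKC.

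The kinase gene aPKC, whose product phosphorylates L(2)gl and Baz, had fitted changes from -0.63 to 0.15, and none passed the test (limma adjusted p from 0.46 to 0.869). Its RasV12baz- log2 ratios were 0.23, 0.13, -2.66 and -0.49. The low value of replicate 3 equals the log2 of the whole-number ratio 3 to 19 within 1e-05. Without it the fitted change in RasV12baz- was 0.02 instead of -0.63. Of all deposited values 1.99% were such ratios of whole numbers up to 20. Among the 160 values of the 10 genes there were 5, the other 4 being those of Nrx-IV in RasV12cdc42-. Signal levels were not used here, so whether these spots were dim was not tested.

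Of the adherens junction genes, arm encodes beta-catenin, which links E-cadherin to the cytoskeleton and also carries the Wingless signal. Its log2 ratio in RasV12scrib- was -0.94, -1.91, -0.42 and -0.18, so all 4 replicates were below 0 and replicate 2 was the lowest of all 15. In RafGOFscrib- it was 0.79, -0.13 and 0.04, in RasV12baz- -0.04, -0.12, -0.63 and -0.99, and in RasV12cdc42- -0.06, 0.22, -0.46 and -0.63. The fitted change in RasV12scrib- was -0.86 ± 0.24 (SE, 1.82-fold lower, n = 4, limma adjusted p = 0.0117). This call of arm was lost without replicate 2 (-0.54, adjusted p = 0.155), without replicate 1 (-0.73, adjusted p = 0.087), with quantile normalization (-0.47, adjusted p = 0.104), with the random blocks (adjusted p = 0.0874) and on the Cy3 arrays alone (adjusted p = 0.0745). In the other genotypes the fitted change of arm ran from -0.23 in RasV12cdc42- to 0.48 in RafGOFscrib-, and did not pass the test (limma adjusted p from 0.436 to 0.785). The dye correction moved 2 of these values. In RasV12baz- the mean of the replicates was -0.44 and the fitted change -0.20, and in RafGOFscrib- they were 0.23 and 0.48. By replicate means RasV12baz- was thus lower than RasV12cdc42-.

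The E-cadherin gene shg did not pass the test in any genotype, with fitted changes from 0.23 in RasV12scrib- to 0.72 in RafGOFscrib- (limma adjusted p from 0.198 to 0.554). This order depends on the dye correction. The mean of the replicates was 0.40 in RafGOFscrib- and 0.17 in RasV12baz-, where the fitted changes were 0.72 and 0.49. By these means RasV12baz- was the lowest genotype and RasV12cdc42- the highest, at 0.53. Its log2 ratio was 0.71, 0.17, -0.04 and 0.08 in RasV12scrib-, 1.46, -0.27 and 0.01 in RafGOFscrib-, 0.42, 0.35, 0.05 and -0.14 in RasV12baz-, and 0.98, 1.16, -0.01 and -0.02 in RasV12cdc42-. On 13 of the 15 replicates shg had a higher log2 ratio than arm, by a median of 0.61.

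Of the septate junction genes, Nrg encodes an L1-type adhesion protein found at septate junctions and on neurons and glia. Its log2 ratio was 0.72, 0.75, 0.81 and 0.77 in RasV12scrib-, a spread of 0.04 (SD, n = 4). This closeness depends on each array's zero: less the array's median, the values were 0.84, 0.44, 0.77 and 0.79. The log2 ratio of Nrg was 0.78, 1.13, 0.82 and 1.15 in RasV12cdc42-, 0.82, 0.67, 0.32 and 1.003 in RasV12baz-, and 1.29, 0.19 and 0.38 in RafGOFscrib-. All of these values were above 0, and the lowest were those of RafGOFscrib- replicates 3 and 4 and RasV12baz- replicate 3.

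The fitted change of Nrg was 0.76 ± 0.18 (SE, 1.70-fold, n = 4, limma adjusted p = 0.00435) in RasV12scrib- and 0.97 ± 0.18 (1.96-fold, n = 4, limma adjusted p = 0.0016) in RasV12cdc42-. In RasV12baz- it was 0.70 ± 0.22 with limma adjusted p = 0.0877 (n = 4), and it passed under 5 of 26 other settings, among them the fit without the dye term (adjusted p = 0.0156). In RafGOFscrib- it was 0.61 ± 0.25 with limma adjusted p = 0.182 (n = 3). Both calls of Nrg were lost with the random blocks (adjusted p = 0.0709 in RasV12scrib- and 0.0559 in RasV12cdc42-) and on the Cy3 arrays alone (0.0929 and 0.0514), at nearly the same log2 change. None of the 5 glial markers (repo, moody and others) and 4 neuronal markers (elav, brp and others) was paired with a feature, so the part of such cells in the Nrg result was not tested.

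The gene cora encodes a protein 4.1 family scaffold on the cytoplasmic side of the septate junction. In RasV12scrib- its log2 ratio was -1.37, -0.95, -0.66 and -0.46. In RafGOFscrib- it was 0.22, -0.21 and 0.33, in RasV12baz- 0.64, 0.28, -0.08 and -0.34, and in RasV12cdc42- -0.22, 0.29, 0.08 and 0.03. The 4 RasV12scrib- values were the lowest of the 15 and overlapped none of the others. The share of all features with this pattern was not counted, so it does not set cora apart. Taken singly against RafGOFscrib-, RasV12baz- and RasV12cdc42-, 15.3%, 10.2% and 8.8% of all features had no overlap with RasV12scrib-, in either direction. The fitted change in RasV12scrib- was -0.86 ± 0.19 (SE, 1.82-fold lower, n = 4, limma adjusted p = 0.00226), and the call of cora was lost in 1 of 26 settings, the Cy3 arrays alone (-0.71, adjusted p = 0.108). In the other genotypes the fitted change lay between 0.03 and 0.04 (limma adjusted p from 0.916 to 0.958), and its sign there turned with centred arrays (-0.21 in RafGOFscrib-, -0.11 in RasV12baz- and -0.08 in RasV12cdc42-). On all 15 replicates the log2 ratio of Nrg was above that of cora, by 0.05 to 2.09 with a median of 0.998. The other septate junction pairs were less steady. Nrg was above Nrx-IV and above Fas3 on 13 replicates each, and Fas3 above cora on 11. Nrx-IV was above cora on 9 and above Fas3 on 8.

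Fas3, an immunoglobulin-type adhesion protein of the septate junction, had fitted changes from -0.18 in RasV12scrib- to 0.60 in RafGOFscrib-, with no call (limma adjusted p from 0.322 to 0.868). Its log2 ratio was -0.25, -0.78, 0.26 and 0.04 in RasV12scrib-, 1.40, 0.05 and 0.45 in RafGOFscrib-, 0.54, -0.30, -0.62 and 0.01 in RasV12baz-, and 0.29, -0.29, 0.55 and 0.48 in RasV12cdc42-. Both signs thus occurred in every genotype except RafGOFscrib-.

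Nrx-IV, a neurexin-type transmembrane protein that binds Cora, could not be measured closely in RasV12cdc42-, where its log2 ratios were 0.58, -2.12, 2.32 and 0.74. These are the logarithms of 3 to 2, 3 to 13, 5 to 1 and 5 to 3. They also enter the dye correction of Nrx-IV, which was estimated from RasV12cdc42- and RasV12scrib-, the genotypes with swapped arrays. The fitted change in RafGOFscrib- was 0.00 although its replicates were at 1.22, 0.26 and 0.30, with a mean of 0.59. With whole-number ratios left out, a setting added after the values were seen, it was 0.55 (adjusted p = 0.316), and no value could be fitted for RasV12cdc42-. Leaving out RasV12cdc42- replicate 2 alone gave 1.14 in that genotype (adjusted p = 0.0203), and using the Cy3 arrays alone gave 1.53 (adjusted p = 0.0129). The Cy3 value rests on replicates 3 and 4 only (n = 2), the ratios 5 to 1 and 5 to 3. Both fits thus use whole-number ratios alone for that genotype. In RasV12scrib- and RasV12baz- the replicates of Nrx-IV lay between -0.50 and 0.05, with no call (limma adjusted p = 0.661 and 0.441). With the dye correction the fitted change in RasV12baz- was -0.71, below all 4 of its replicates, whose mean was -0.11.

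**Figure D2:**
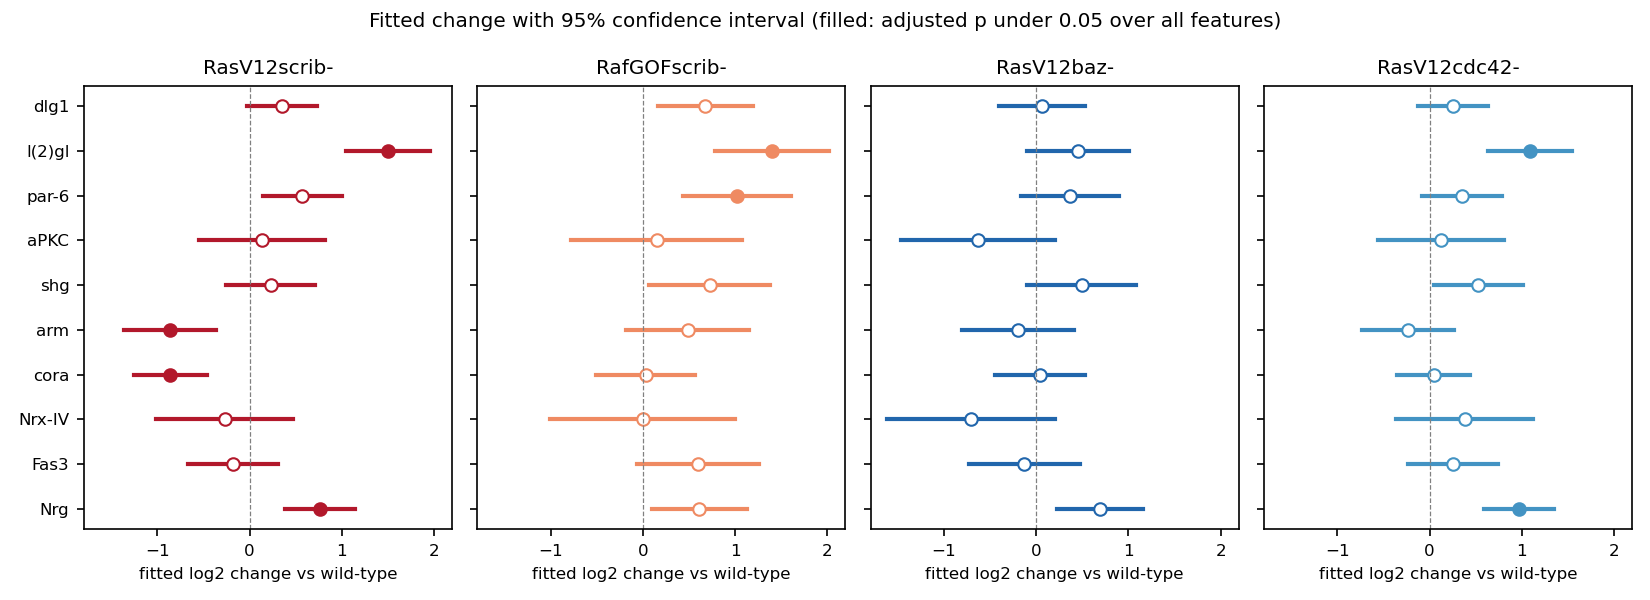
Fitted log2 change against wild-type (horizontal axis) for the 10 genes in each genotype. Points are the fit with a dye term, lines the 95% confidence interval, and filled points had a limma adjusted p under 0.05 over all features; n = 4 replicates except RafGOFscrib- (n = 3). In RasV12scrib- 4 points are filled, in RafGOFscrib- and RasV12cdc42- 2 each and in RasV12baz- none.

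By genotype, 4 of the 10 genes passed the test in RasV12scrib-, 2 higher and 2 lower, where 22.1% of all 11196 features passed (10.4% higher and 11.7% lower). In RafGOFscrib- 2 rose and none fell, against 4.74% of all features (3.65% higher). In RasV12cdc42- 2 rose and none fell, against 8.14% (5.72% higher and 2.42% lower). In RasV12baz- none passed by limma, against 4.75% of all features, and 1 (Nrg) had an unadjusted p under 0.05, against 17% of all features. At an unadjusted p under 0.05 there were 5 of the 10 in RasV12scrib- (par-6 besides the called genes), 5 in RafGOFscrib- (dlg1, shg and Nrg besides) and 3 in RasV12cdc42- (shg besides), against 31.9%, 18.4% and 19.7% of all features.

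The replicates lay all on one side of 0 for 5 of the 10 genes in RasV12scrib- (dlg1, l(2)gl, arm, cora and Nrg), against 34.3% of all features. In RafGOFscrib- this held for 6 (dlg1, l(2)gl, par-6, Nrx-IV, Fas3 and Nrg) against 55.6%, in RasV12baz- for 3 (l(2)gl, arm and Nrg) against 29%, and in RasV12cdc42- for 2 (l(2)gl and Nrg) against 31.8%. The 6 members in RafGOFscrib-, the 3 in RasV12baz- and the 2 in RasV12cdc42- are near or below the share of all features. The 5 in RasV12scrib- were not tested against it, and no test sets the 10 genes apart from the rest of the array.

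The median fitted change of the 10 genes was 0.18 in RasV12scrib-, 0.61 in RafGOFscrib-, 0.05 in RasV12baz- and 0.30 in RasV12cdc42-. Over all features the medians were 0.05, 0.24, 0.15 and 0.14 in the same order. The RafGOFscrib- median rests largely on the merged replicate. On it 7 of the 10 genes (dlg1, l(2)gl, par-6, shg, arm, Fas3 and Nrg) had their highest value of all 15 replicates. The share of all features with their highest value there was not counted, so this number does not set the 10 genes apart. The median of the 10 genes on the merged replicate was 1.28, against 0.47 for all features there. On RafGOFscrib- replicates 3 and 4 the median of the 10 genes was 0.11 and 0.34, and that of all features 0.11 and 0.32. Without the merged replicate none of the 10 genes was called in RafGOFscrib-, against 1.41% of all features.

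**Figure D3:**
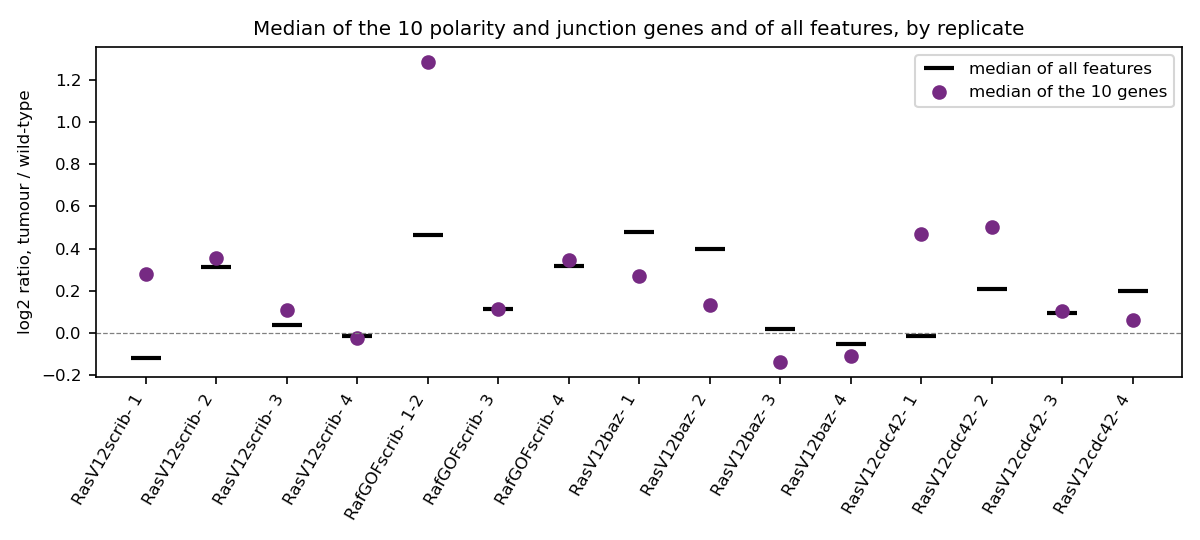
Median log2 ratio on each replicate (horizontal axis) of the 10 genes (points) and of all 11196 features (bars). On the merged RafGOFscrib- replicate the 10 genes had a median of 1.28 and all features 0.47.

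In dlg1, par-6 and shg, replicates 1 and 2 lay above replicates 3 and 4 within each of the 4 genotypes, with no overlap. This pattern, looked for after the values were seen, held for 3 of the 10 genes and for 4.76% of all features, and the reverse for none of the 10 and for 0.0625%. Within single genotypes it held for 5 of the 10 genes in RasV12scrib-, 8 in RafGOFscrib-, 6 in RasV12baz- and 5 in RasV12cdc42-, against 26%, 57.7%, 65.6% and 25% of all features. For shg the mean log2 ratio of replicates 1 and 2 and of replicates 3 and 4 was 0.44 and 0.02 in RasV12scrib-, 0.38 and -0.05 in RasV12baz-, and 1.07 and -0.02 in RasV12cdc42-, and in RafGOFscrib- the merged replicate stood at 1.46 against -0.13. For par-6 these means were 0.87 and 0.28, 0.22 and -0.13, and 0.84 and -0.14 in the same order, and in RafGOFscrib- 1.45 against 0.31. A term for replicates 1-2 against 3-4 was also fitted, but only after the pattern was seen, so it serves as description. Of the 10 genes it passed for shg (0.74, limma adjusted p = 0.036) and par-6 (0.64, limma adjusted p = 0.04) alone. For dlg1 it did not pass (0.42, limma adjusted p = 0.0953), and over all features it passed for 6.47%. Taken as random blocks, the pairs had a correlation of 0.57 over all features, whereas the main fit takes the replicates as independent.

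The labels do not say what replicates of the same number share, and in RasV12cdc42- the pairs coincide with the dyes, so pair and dye cannot be told apart there. The dye correction that enters the fitted values of RafGOFscrib- and RasV12baz- rests in part on those arrays. The dye term passed for none of the 10 genes, with the lowest limma adjusted p at 0.435 for Nrx-IV, and 2 of them (par-6 and Nrx-IV) had an unadjusted p under 0.05, as did 10.3% of all features. For l(2)gl and Nrg the means of the pairs in RasV12cdc42- were 1.10 and 1.08, and 0.95 and 0.98. In RasV12scrib- they were 1.69 and 1.32 for l(2)gl and 0.73 and 0.79 for Nrg. The rises of these genes were therefore present in both pairs. The falls of arm and cora in RasV12scrib- were larger in replicates 1 and 2, at -1.43 and -1.16, than in replicates 3 and 4, at -0.30 and -0.56.

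**Figure D4:**
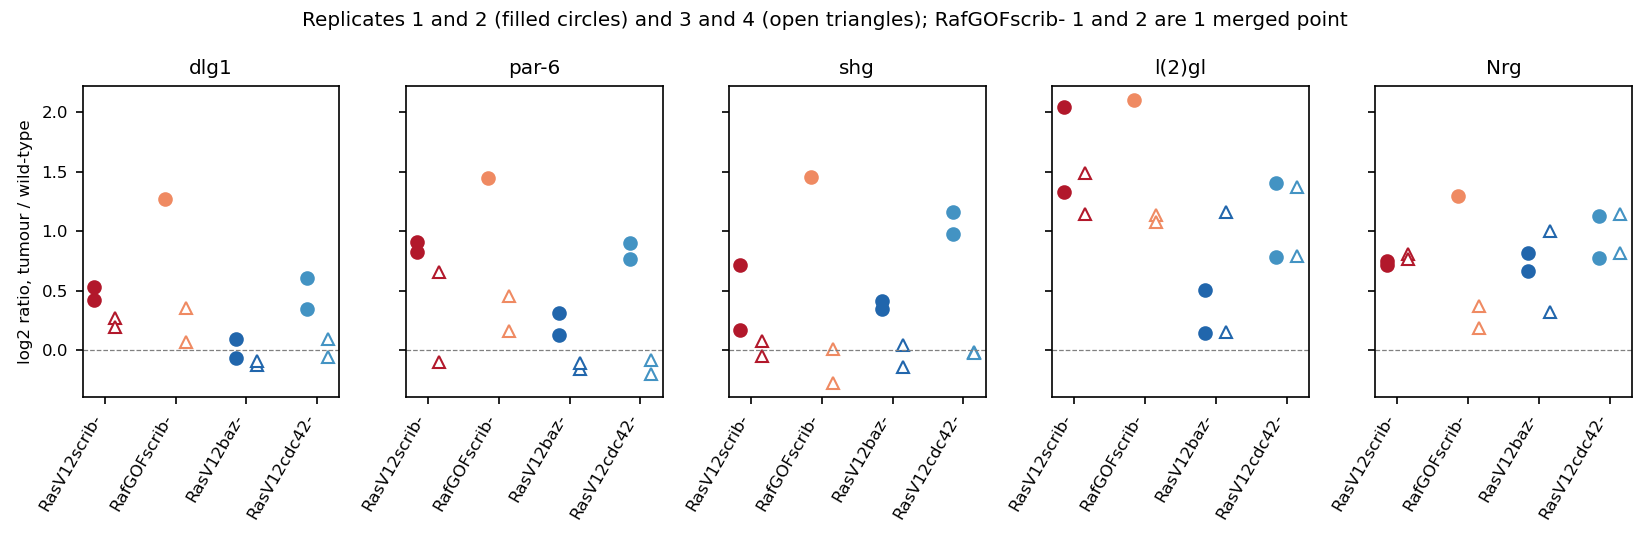
Log2 ratio (vertical axis) of dlg1, par-6, shg, l(2)gl and Nrg, with replicates 1 and 2 as filled circles and replicates 3 and 4 as open triangles. In dlg1, par-6 and shg the circles lie above the triangles within each genotype, while in l(2)gl and Nrg they do so in RafGOFscrib- alone.

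An F-test for a difference among the 4 genotypes called none of the 10 genes (limma, lowest adjusted p = 0.132 for cora), against 3.97% of all features. At an unadjusted p under 0.05 it had 3 of the 10 (l(2)gl, arm and cora), against 15.4% of all features. The order of the fitted values for l(2)gl was RasV12scrib-, RafGOFscrib-, RasV12cdc42- and RasV12baz- from high to low, and no neighbours in it differed past the threshold where the contrast was tested. For cora RasV12scrib- was the lowest and the other genotypes lay within 0.02 of each other.

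Between the scrib tumours, which differ in the oncogene, arm was higher in RafGOFscrib- than in RasV12scrib- by 1.35 ± 0.40 on the log2 scale (95% interval 0.51 to 2.18, limma adjusted p = 0.107) and cora by 0.89 ± 0.32 (0.23 to 1.56, limma adjusted p = 0.186). Neither passed, although the replicates of the genotypes did not overlap. Including Nrx-IV, 3 of the 10 genes were without overlap, as were 15.3% of all features, and none was called, against 1.18%. For arm the difference passed without RasV12scrib- replicate 4 (1.90, adjusted p = 0.0384).

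With the Ras oncogene held constant, l(2)gl was lower in RasV12baz- than in RasV12scrib- by a log2 difference of -1.05 ± 0.34 (95% interval -1.77 to -0.34, limma adjusted p = 0.112), with overlapping replicates. In the same contrast cora was higher by 0.90 ± 0.30 (0.28 to 1.53, limma adjusted p = 0.118), with no overlap. Without RasV12baz- replicate 4 both differences passed, l(2)gl at -1.28 (adjusted p = 0.0319) and cora at 1.06 (adjusted p = 0.0458). The replicates of 2 of the 10 genes (dlg1 and cora) did not overlap, as for 10.2% of all features, and none of the 10 was called, against 3.02%.

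Between RasV12cdc42- and RasV12scrib- the difference of cora was 0.91 ± 0.27 (95% interval 0.35 to 1.46, limma adjusted p = 0.0729), the only one of the 10 genes without overlap, against 8.8% of all features. It passed with centred arrays (0.84, adjusted p = 0.0317). None of the 10 was called, against 3.51% of all features. Between RasV12cdc42- and RasV12baz- none was called, against 0.0357%, none was without overlap, against 4.35%, and none had an unadjusted p under 0.05, against 5.64%. The interval of that difference ran from -0.08 to 1.36 for l(2)gl and from -0.62 to 0.63 for cora, so a doubling of l(2)gl between these genotypes lies within its interval.

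**Figure D5:**
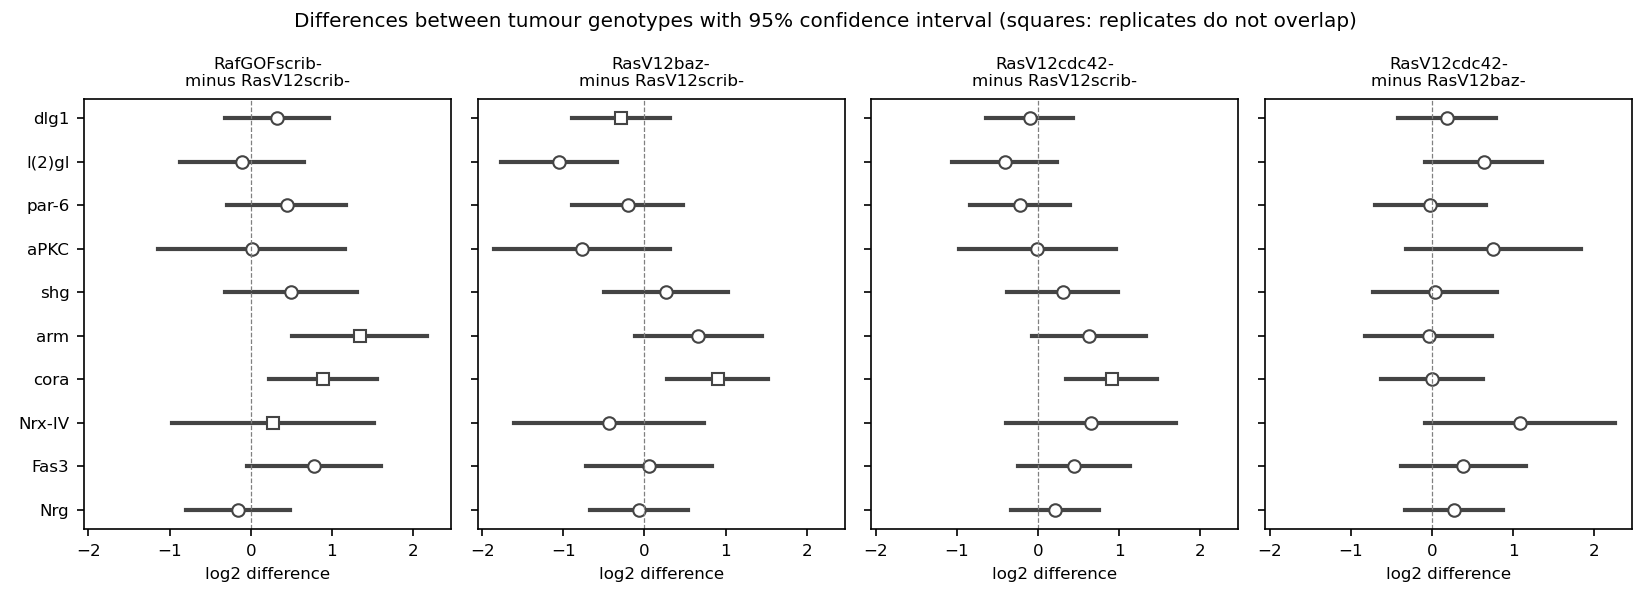
Log2 difference between tumour genotypes (horizontal axis) for the 10 genes, with the 95% confidence interval. Squares mark genes whose replicates did not overlap between the genotypes. No difference passed the threshold; cora lies above 0 in each of the 3 comparisons with RasV12scrib-, at 0.89, 0.90 and 0.91, which share the RasV12scrib- replicates.

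Across the 15 replicates, the gene most like par-6 among the 10 was dlg1, with Pearson r = 0.89 and Spearman rho = 0.85, and 16 of all features were closer to dlg1 than par-6 was. The gene most like arm was cora (r = 0.68), or Fas3 with arrays centred (r = 0.61), with 313 features closer to arm than cora was and 1331 closer to cora than arm was. The gene most like l(2)gl was dlg1 (r = 0.69), with 224 features closer to l(2)gl. Over all features the closest to arm was FBgn0031879 (r = 0.96) and the closest to shg was FBgn0037277 (r = 0.94), neither of which could be named here. These values describe replicates that share the wild-type reference, the array's zero and the grouping of replicates 1-2 and 3-4, and they carry no test. Another 40 genes of polarity and junctions, such as crb, alpha-Cat, Gli and sinu, could not be paired with features by name, and are not analysed here.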

How the data were processed

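The deposited values are log2 ratios of 11196 features on 16 arrays. Scanning, background correction, normalization and averaging of spots are not given in the sources used here. Per the labels, RNA was taken with TRIzol, amplified and labelled with random hexamers, and RasV12scrib- replicates 1 and 3 and RasV12cdc42- replicates 1 and 2 were dye-swapped. The log base was taken from deposited values that equal the log2 of ratios of small whole numbers. No sign was changed.

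RafGOFscrib- replicates 1 and 2 (552 features differ) were averaged. All features of the 15 replicates were modelled with limma 3.58.1 in R 4.3.3 by genotype means plus a dye effect, with empirical Bayes moderation. The fit was tried on simulated data in which all arrays varied independently. Those data had no likeness within replicates 1-2 and 3-4, so they cannot show how the p-values hold under it. P-values are two-sided and adjusted by Benjamini-Hochberg over all 11196 features in each comparison, with a threshold of 0.05. Wild-type discs were measured only as the reference channel, and their own spread is not part of the error if the arrays used the same reference RNA. The labels call the arrays biological replicates. All 10 genes are named, and no feature was filtered. The members, lists and settings were chosen with earlier results of these data known. Figures used Python 3.11.15 and matplotlib 3.10.9.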

Additional observations from a re-analysis of the deposited data

How the results depend on the processing

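Each value was refitted under 26 other settings, 15 of which left out 1 replicate. The fits without whole-number ratios and with a fixed term for replicates 1-2 against 3-4 were added after the values were seen. Of the 8 calls against wild-type none changed sign. The share of all 11196 features called stands in brackets. Leaving out 1 replicate, that share ran from 16.5% to 23% in RasV12scrib- and from 1.41% to 5.79% in RafGOFscrib-. It ran from 2.15% to 5.57% in RasV12baz- and from 4.16% to 9.84% in RasV12cdc42-. The RasV12scrib- calls numbered 4 (22.1%), and were 2 with replicates 1-2 and 3-4 as random blocks (10.1%), 1 on the Cy3 arrays alone (10.8%) and 3 to 5 leaving out 1 replicate. The RafGOFscrib- calls numbered 2 (4.74%), and were 1 without the dye term (9.07%), 1 with centred arrays (4.14%), 1 with the random blocks (2.44%), 1 on the Cy3 arrays (9.4%), 3 with array weights (16.2%), 5 with the near-identical arrays kept separate (13.8%), 0 without RasV12baz- replicate 4 and the merged RafGOFscrib- replicate (1.67%) and 0 to 2 leaving out 1 replicate. The RasV12baz- calls numbered 0 (4.75%), and were 1 without the dye term (8.78%), 1 with quantile normalization (13.5%), 1 on the Cy3 arrays (9.15%), 4 with array weights (42.2%) and 0 to 1 leaving out 1 replicate. The RasV12cdc42- calls numbered 2 (8.14%), and were 0 with the random blocks (2.4%), 7 with array weights (36.3%) and 2 to 3 leaving out 1 replicate. On the Cy3 arrays there was 1 (4.68%), which was Nrx-IV, while l(2)gl and Nrg were both lost. The cause was not tested, and fewer arrays entered the Cy3 fit.

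Among the 4 genotypes 0 were called (3.97%), 3 with array weights (27.5%) and 0 to 1 leaving out 1 replicate (2.65% to 5.98%). Leaving out 1 replicate, the share of all features ran from 0.313% to 2.12% between the scrib tumours. Against RasV12scrib- it ran from 1.14% to 5.8% for RasV12baz- and from 2.03% to 4.03% for RasV12cdc42-. Between RafGOFscrib- and RasV12scrib- 1 was called with the near-identical arrays kept separate (3.41%) and 0 to 1 leaving out 1 replicate. Between RasV12baz- and RasV12scrib- 1 was called without the dye term (5.72%), 1 with array weights (12.5%), 2 without RasV12baz- replicate 4 and the merged replicate (6.97%) and 0 to 2 leaving out 1 replicate. Between RasV12cdc42- and RasV12scrib- 1 was called with centred arrays (4.3%) and 0 to 1 leaving out 1 replicate, and between RasV12cdc42- and RasV12baz- 3 with array weights (28%).

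Same-numbered replicates of different genotypes deviated together at r over 0.1 in 12 of 21 pairs, and 7 of 15 replicates were closest to one of their own number, so the numbers were not taken to pair the samples. With the replicate number as a block 5 genes were called in RasV12scrib- (23.1%; par-6 added, adjusted p = 0.0183), 2 in RafGOFscrib- (3.07%), 0 in RasV12baz- (3.46%) and 2 in RasV12cdc42- (8.1%). No gene met the limits for a sample far from the others in the 30 groups of 4 tested. RafGOFscrib- (n = 3) was not among these groups. The aPKC value of -2.66 on RasV12baz- replicate 3 was not flagged either, so an unflagged value can still lie far from the others.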
